A study of Mus musculus with 2 samples.

Results

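The immediate early response genes described here are 34 genes, taken from a list of names, out of 53380 features in the deposited matrices. They were Fos, Fosb, Fosl2, Jun, Junb, Jund, Atf3, Egr1, Egr2, Egr3, Ier2, Ier3, Ier5, Nr4a1, Nr4a2, Klf6, Klf10, Myc, Csrnp1, Btg1, Btg2, Zfp36, Zfp36l1, Dusp1, Dusp6, Socs3, Nfkbia, Rhob, Sgk1, Gadd45a, Gadd45b, Gadd45g, Mcl1 and Ppp1r15a. All 34 were among the 8268 genes measured in nerve endothelium, which means that their level, averaged over both libraries, reached 10 CPM (counts of UMIs per gene, scaled to the same total in each library). The cells came from the sciatic nerve of adult mice that carried Cdh5(PAC)-CreERT2, a Cre driven by an endothelial cadherin promoter, and the R26-TomatoLSL reporter. The injured library was made from the bridge at the lesion 7 days after injury, and the intact library from uninjured sciatic nerves. The genotype was the same in both. For each library nerves were pooled, digested with enzymes at 37 degrees C for 30 minutes, and sorted as tdTomato-positive and CD45-negative cells. The sources used here do not give the number of animals behind each pool. Each condition was 1 library, so no test was made, no p-value is given, and the 95% intervals cover counting error only. Injury cannot be told apart from differences between the animals, the tissue site, the sort or the sequencing run.

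Immediate early genes are transcribed within minutes of a growth factor, cytokine, change of flow or stress, without new protein synthesis. MAP kinases reach them through serum response factor with ETS partners, CREB, and AP-1, and NF-kB and STAT3 drive some of them. Many encode transcription factors such as the FOS, JUN and EGR proteins. Others encode brakes on the same signals, such as phosphatases, cytokine inhibitors and proteins that destroy short-lived mRNAs. In endothelium they are known to answer growth factors, thrombin, shear stress and tissue dissociation.

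The promoters below are shown because they carry the sites through which such signals are known to act, in members that were at least 2-fold lower in injured endothelium. Each is the 250 bases before the start of transcription, 5′ to 3′ along the gene, from RefSeq on GRCm38.p6. Capitals mark the cyclic AMP response element (CRE) TGACGTCA, its core TGACG, a CArG box (the site of serum response factor) or TATAAA, on either strand.
Fos promoter, chr12:85473640-85473889, plus strand: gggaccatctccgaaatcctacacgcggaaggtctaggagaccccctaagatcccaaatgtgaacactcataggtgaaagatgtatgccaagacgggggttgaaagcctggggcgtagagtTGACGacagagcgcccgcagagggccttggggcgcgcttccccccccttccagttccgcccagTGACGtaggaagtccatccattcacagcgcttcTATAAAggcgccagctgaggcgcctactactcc
Fosb promoter, chr7:19310046-19310295, minus strand: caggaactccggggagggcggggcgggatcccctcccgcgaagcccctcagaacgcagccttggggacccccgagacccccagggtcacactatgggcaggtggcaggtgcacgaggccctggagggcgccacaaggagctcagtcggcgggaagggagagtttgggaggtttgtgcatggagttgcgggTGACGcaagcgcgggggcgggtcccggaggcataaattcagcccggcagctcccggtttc
Btg2 promoter, chr1:134079156-134079405, minus strand: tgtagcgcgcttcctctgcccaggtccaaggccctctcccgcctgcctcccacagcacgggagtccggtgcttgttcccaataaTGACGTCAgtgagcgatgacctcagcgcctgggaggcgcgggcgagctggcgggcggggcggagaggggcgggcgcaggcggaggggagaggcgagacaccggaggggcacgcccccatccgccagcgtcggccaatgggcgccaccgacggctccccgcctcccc
Dusp1 promoter, chr17:26508473-26508722, minus strand: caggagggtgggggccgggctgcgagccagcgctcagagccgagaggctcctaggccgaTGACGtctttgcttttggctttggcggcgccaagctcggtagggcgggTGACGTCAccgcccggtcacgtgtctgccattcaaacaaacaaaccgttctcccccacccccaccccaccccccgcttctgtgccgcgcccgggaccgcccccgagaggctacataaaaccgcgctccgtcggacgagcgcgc
Zfp36 promoter, chr7:28379229-28379478, minus strand: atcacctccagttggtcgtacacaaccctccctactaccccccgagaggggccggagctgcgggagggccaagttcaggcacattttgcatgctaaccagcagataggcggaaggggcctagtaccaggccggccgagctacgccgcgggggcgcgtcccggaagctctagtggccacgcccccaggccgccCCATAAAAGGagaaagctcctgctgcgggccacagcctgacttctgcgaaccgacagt
In the Fos promoter the core TGACG stood 62 and 125 bases before the start, counted to its nearest base, and TATAAA stood 28 bases before it. Btg2 and Dusp1 held the whole CRE, 159 and 136 bases before the start, where the palindrome also counts as the core on each strand. Zfp36 held a CArG box 49 bases before the start. The promoters of Jun and Ier3, also at least 2-fold lower, held none of these sites in the same stretch. Those of Nr4a1, Nr4a2 and Ppp1r15a, which were under 2-fold lower, held TGACG.

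The promoter table matched 29 of the 34 genes, with 41 windows of 300 bases that run from 250 bases before to 50 after a start. Egr1, Egr3, Ier2, Klf10 and Myc had no entry in it, so their promoters were not read. Sites outside these windows were not read for any gene. TATAAA stood in a window of 10 members (34.5%), against 8.46% of 6363 measured genes in the table. The whole CRE stood in 3 members (10.3%), Btg2, Dusp1 and Ppp1r15a, against 3.57% of measured genes. Its core TGACG, which also lies within every CRE, stood in 14 members (48.3%) against 38.6%. A CArG box stood in 2 members (6.90%), Egr2 and Zfp36, against 1.63%. An NF-kB site stood in 7 members (24.1%) against 12.8%, an EGR site (GCGTGGGCG or GCGGGGGCG) in 5 (17.2%) against 8.44%, and a STAT site (TTCNNNGAA) in 4 (13.8%) against 7.86%. The AP-1 site (TGACTCA or TGAGTCA) stood in 1 member (3.45%) against 4.38%, and the ETS site CCGGAAGT in 0 of 29 against 10.3%. All motifs were read on both strands, genes with several starts had more windows to match, and a match is a description of letters, not of binding.

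The genes were compact. Their median length was 4324 bases, against 25241 bases over 7942 measured protein-coding genes in GENCODE on GRCm38, and their longest transcripts had a median of 3 exons against 8. Of the 34, 27 (79.4%) were shorter than 10000 bases, against 23.7% of measured coding genes. The shortest was Ier3 with 1240 bases and the longest was Sgk1 with 117720 bases. The AU-rich nonamer TTATTTATT, the site that the Zfp36 family is known to bind in short-lived mRNAs, stood in the longest 3′ UTR of 8 members (23.5%), against 7.78% of 7931 measured genes. This motif was added after the data were seen. Its sites in 3 members that were at least 2-fold lower are shown with the nonamer in capitals, on the mRNA strand.
Fos 3′ UTR site, base 655 of 815, gene at chr12:85473890-85477273: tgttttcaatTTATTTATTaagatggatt
Zfp36 3′ UTR site, base 589 of 774, gene at chr7:28376784-28380253: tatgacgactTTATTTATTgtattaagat
Dusp1 3′ UTR site, base 103 of 690, gene at chr17:26505590-26562128: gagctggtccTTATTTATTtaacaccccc
Csrnp1, Fosl2, Nfkbia, Ppp1r15a and Zfp36l1 held it too. The median log2 ratio, injured over intact, was -0.74 in the 8 members with the nonamer and -0.99 in the 26 without it, so members with it were not the lower ones.

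The authors' cell table gave a class to 1435 injured and 866 intact cells, in 10 classes of which 9 are named endothelial. Of all barcodes 298 occurred in both libraries. A cell was left out where its barcode had at least 5 times its UMIs in the other library, which removed 48 injured and 100 intact endothelial cells. Of the injured cells removed, 47 were in EC_BAR, the barrier class. The classes EC_IMMAT, EC_PROLIF and EC_TIP lost 48, 27 and 17 intact cells. The kept endothelium was 1274 injured cells with 19989024 UMIs and 718 intact cells with 4542225 UMIs. Injured cells were deeper, with a median of 11684 UMIs per cell, against 4461 in intact cells. The 8 endothelial markers (Pecam1, Cdh5 and others) were all detected in both, at a sum of 4855 CPM in injured and 6565 CPM in intact endothelium. Fibroblast markers summed to 36.1 and 60.8 CPM, Schwann cell markers to 1.35 and 6.16 CPM and myeloid markers to 35.3 and 60.3 CPM in injured and intact endothelium.

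The 34 immediate early genes, which were chosen with earlier results of these data known, were lower as a set in endothelium of the injured nerve. Summed over the 34 genes they took 13989 CPM in injured and 30316 CPM in intact endothelium, 2.17-fold lower (95% interval 2.15 to 2.18), a log2 ratio of -1.12. Of the 34, 32 had a log2 ratio below 0, as 46.7% of all measured genes had. The counting interval of the ratio lay below 1 for 31 members, where it did for 30.7% of all measured genes, and above 1 for 2, where it did for 36.1%. At least 2-fold lower, after 5 CPM was added to both values, were 14 members, where 6.82% of all measured genes were. At least 2-fold higher were 0 members, where 4.79% of all measured genes were. The median log2 ratio was -0.92 over the members and 0.04 over all measured genes. Without Fos the summed level was 2.05-fold lower (12695 CPM in injured and 26047 CPM in intact endothelium), and without Egr1 2.08-fold lower (13651 and 28398 CPM).

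**Figure D1:**
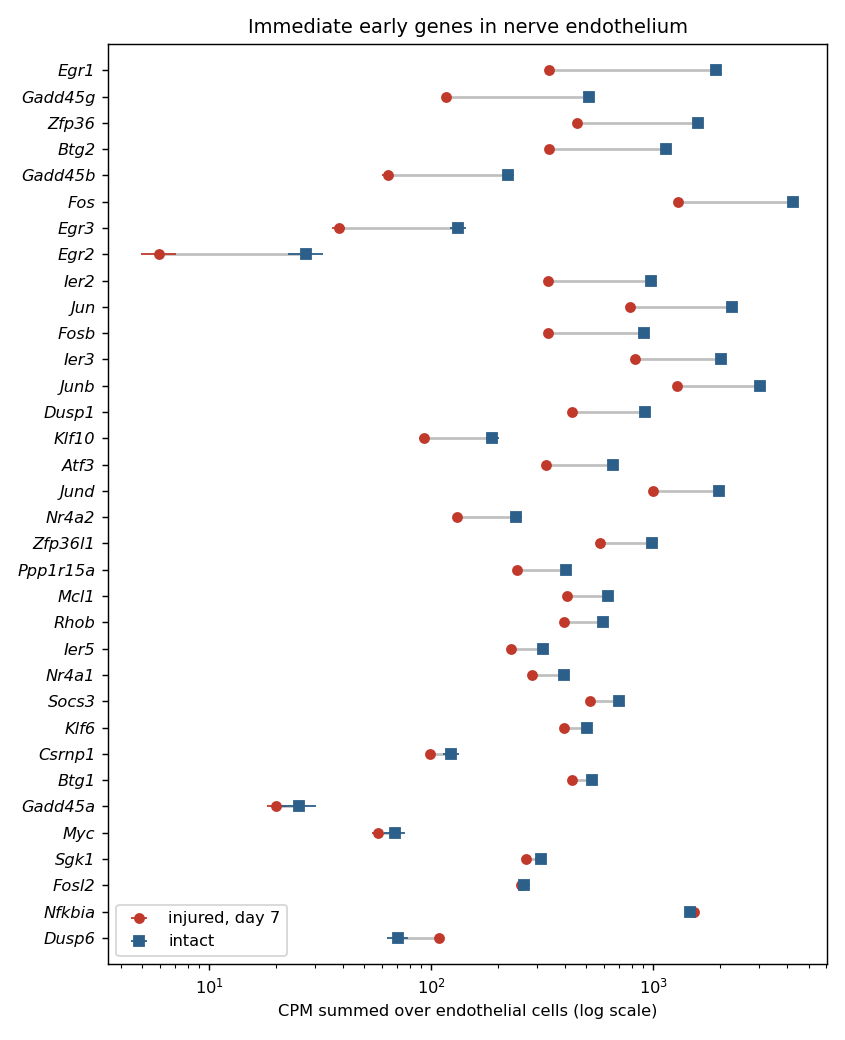
CPM of each of the 34 genes (log axis) summed over endothelial cells, with injured as red circles and intact as blue squares, 1 library each, and bars for the 95% counting interval; genes run from the lowest log2 ratio at the top to the highest at the bottom. The injured value lies left of the intact one for 32 genes, with the widest gap for Egr1 (338 and 1918 CPM), and right of it for Nfkbia and Dusp6.

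The AP-1 factors were lower with Fosl2 as the exception. Fos, which pairs with a JUN protein to bind AP-1 sites, had 1294 CPM in injured and 4270 CPM in intact endothelium, 3.30-fold lower (95% interval 3.24 to 3.36, log2 -1.72). Fosb, a close relative of Fos, had 335 CPM in injured and 905 CPM in intact endothelium, 2.70-fold lower (2.60 to 2.81, log2 -1.42). Jun, which can pair with FOS proteins or with itself, had 784 and 2250 CPM in injured and intact endothelium, 2.87-fold lower (2.80 to 2.94, log2 -1.52). So the partners of an AP-1 dimer were lower together. Junb, a JUN protein that often restrains Jun, had 1276 CPM in injured and 3025 CPM in intact endothelium, 2.37-fold lower (2.32 to 2.42, log2 -1.24). Jund, the JUN protein with the most steady expression in many resting cells, had 992 and 1968 CPM in injured and intact endothelium, 1.98-fold lower (1.94 to 2.03, log2 -0.99), just short of the 2-fold call. Atf3, a stress-induced partner of JUN proteins, had 328 CPM in injured and 656 CPM in intact endothelium, 2.00-fold lower (1.91 to 2.09), and with 5 CPM added it also missed the call (log2 -0.99). Fosl2, a FOS protein that is induced later and more persistently than Fos, had nearly the same level, 254 CPM in injured and 262 CPM in intact endothelium, and the interval of its fold (0.967 to 1.10) held 1.

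The EGR factors had some of the lowest ratios. Egr1, a zinc finger factor that MAP kinases switch on through serum response factor, had 338 CPM in injured and 1918 CPM in intact endothelium, 5.68-fold lower (5.50 to 5.86, log2 -2.49). That was the lowest of the 34 ratios, and 0.823% of measured genes lay at or below it. Egr3, its relative, had 38.3 CPM in injured and 132 CPM in intact endothelium, 3.46-fold lower (3.10 to 3.85, log2 -1.67). Egr2, known in nerve as the myelination factor of Schwann cells, had 5.95 CPM (119 UMIs) in injured and 27.3 CPM (124 UMIs) in intact endothelium, 4.59-fold lower (3.54 to 5.95). At log2 -1.56 it passed the call, but it was too low to be measured within any class. The Schwann cell markers given above summed to 1.35 CPM in injured and 6.16 CPM in intact endothelium. Their part in the level of Egr2 was not tested.

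The nuclear receptors, the member Krüppel-like factors, Myc and Csrnp1 were all short of the 2-fold call in pooled endothelium. Nr4a1, an orphan nuclear receptor without a classic ligand pocket, had 286 CPM in injured and 397 CPM in intact endothelium, 1.39-fold lower (1.32 to 1.47, log2 -0.47). Nr4a2, its relative, had 131 and 241 CPM in injured and intact endothelium (log2 -0.85). Klf10, a zinc finger factor induced by TGF-beta, had 92.5 CPM in injured and 189 CPM in intact endothelium (log2 -0.99), again just short of the call. Klf6, a zinc finger factor induced by vessel injury, had 395 CPM in injured and 505 CPM in intact endothelium, 1.28-fold lower (1.22 to 1.34, log2 -0.35). Myc, which drives ribosome production and growth, had 57.5 and 68.5 CPM in injured and intact endothelium, 1.19-fold lower (1.05 to 1.35, log2 -0.23). Csrnp1, a nuclear protein induced by AXIN1, had 98.8 CPM in injured and 122 CPM in intact endothelium, 1.24-fold lower (1.13 to 1.36, log2 -0.30).

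The 3 IER genes did not move alike. Ier2, a small nuclear protein, had 336 CPM in injured and 972 CPM in intact endothelium, 2.89-fold lower (2.78 to 3.01, log2 -1.52). Ier3, which modulates ERK signalling and cell survival, had 826 CPM in injured and 2016 CPM in intact endothelium, 2.44-fold lower (2.38 to 2.50, log2 -1.28). Ier5, which acts on heat shock factor HSF1, had 228 CPM in injured and 320 CPM in intact endothelium, 1.40-fold lower (1.32 to 1.49, log2 -0.48), and was not called.

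Genes that shorten the life of mRNAs were all lower, but within each family they lay on different sides of the 2-fold call. Zfp36 (tristetraprolin), which binds AU-rich sites and brings deadenylases to them, had 451 CPM in injured and 1588 CPM in intact endothelium, 3.52-fold lower (3.41 to 3.63, log2 -1.80). Zfp36l1, a family member with the same kind of RNA-binding zinc fingers, had 576 and 988 CPM in injured and intact endothelium, 1.72-fold lower (1.66 to 1.78, log2 -0.77). Zfp36 was called and Zfp36l1 was not. Btg2, an antiproliferative partner of the CCR4-NOT deadenylase, had 338 CPM in injured and 1142 CPM in intact endothelium, 3.37-fold lower (3.25 to 3.50, log2 -1.74). Its relative Btg1 had 431 CPM in injured and 527 CPM in intact endothelium, 1.22-fold lower (1.17 to 1.28, log2 -0.29).

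The GADD45 family, small proteins that activate stress kinases and halt the cell cycle, was likewise lower throughout, with only some members called. Gadd45g had 117 CPM in injured and 512 CPM in intact endothelium, 4.38-fold lower (4.13 to 4.64, log2 -2.08). Gadd45b, which NF-kB and TGF-beta induce, had 63.6 CPM in injured and 222 CPM in intact endothelium, 3.49-fold lower (3.21 to 3.80, log2 -1.73). Gadd45a, a p53 target, was called in neither direction, at 20.1 and 25.3 CPM in injured and intact endothelium, 1.26-fold lower (1.01 to 1.55, log2 -0.27). Mcl1, a short-lived protein that prevents apoptosis, had 407 CPM in injured and 622 CPM in intact endothelium, 1.53-fold lower (1.46 to 1.59, log2 -0.61). Ppp1r15a (GADD34), which lets translation resume after stress by guiding the eIF2alpha phosphatase, had 244 CPM in injured and 403 CPM in intact endothelium, 1.65-fold lower (1.56 to 1.74, log2 -0.71).

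The feedback inhibitors held both the called and the opposite values. Dusp1, a nuclear phosphatase that switches off p38, JNK and ERK, had 432 CPM in injured and 913 CPM in intact endothelium, 2.11-fold lower (2.04 to 2.19, log2 -1.07). Dusp6, a cytoplasmic phosphatase specific for ERK, had 109 CPM in injured and 70.7 CPM in intact endothelium, a ratio of 1.54 (1.37 to 1.73, log2 0.59), the highest of the 34 but under 2-fold. So the MAP kinase phosphatases lay on opposite sides of 1. Nfkbia, the inhibitor that keeps NF-kB in the cytoplasm and is itself induced by NF-kB, had 1523 CPM in injured and 1457 CPM in intact endothelium, a ratio of 1.05 (1.02 to 1.07, log2 0.06), which turned below 1 in cells under 5% mitochondrial UMIs. Socs3, which STAT3 induces and which blocks JAK kinases at gp130 receptors, had 516 CPM in injured and 700 CPM in intact endothelium, 1.36-fold lower (1.30 to 1.41, log2 -0.44). Rhob, an endosomal GTPase induced by growth factors and stress, had 397 CPM in injured and 591 CPM in intact endothelium, 1.49-fold lower (1.42 to 1.56, log2 -0.57). Sgk1, a kinase induced by serum and glucocorticoids, had 268 CPM in injured and 311 CPM in intact endothelium, 1.16-fold lower (1.09 to 1.23, log2 -0.21).

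The make-up of the libraries differed, and the level of the genes differed by class. EC_IMMAT, EC_PROLIF and EC_TIP, the classes named immature, proliferating and tip, held 260, 162 and 100 kept injured cells, against 4, 11 and 4 kept intact cells. Summed immediate early genes were lowest in these classes among the injured cells, at 11538 CPM in EC_IMMAT, 10238 CPM in EC_PROLIF and 10874 CPM in EC_TIP. Without these 3 classes the summed log2 ratio was -0.82 and 10 members were at least 2-fold lower. With the 5 classes compared below weighted equally it was -0.76, again with 10 members lower. The share of all measured genes at least 2-fold lower was not counted in these settings. Dusp1, Fosb, Ier3 and Junb were each under 2-fold lower in at least 1 alternative setting, with highest log2 values of -0.62, -0.86, -0.78 and -0.87, and the other 10 members were at least 2-fold lower in every setting that measured them.

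Within each of the 5 classes that kept at least 30 cells in both libraries, the summed level was again lower in injured cells. In EC_ART, the arterial class, it was 16123 CPM in 144 injured cells and 38431 CPM in 91 intact cells, 2.38-fold lower (2.34 to 2.42). In EC_BAR, the barrier class, it was 19839 CPM in 36 injured cells and 32541 CPM in 181 intact cells, 1.64-fold lower (1.60 to 1.68). The capillary class EC_CAP-PV- had 18451 CPM in 76 injured cells and 28504 CPM in 128 intact cells, 1.54-fold lower (1.51 to 1.58). Of these classes the arterial one was the highest in intact nerve and the most different. The venous class EC_VEN-PV+ had 15531 CPM in 362 injured cells and 25206 CPM in 213 intact cells, 1.62-fold lower (1.60 to 1.64). The class EC_VEN-PV- had 23465 CPM in 121 injured cells and 33090 CPM in 44 intact cells, 1.41-fold lower (1.38 to 1.44). In that last class the intact cells went against their label, with 1292 CPM of venous markers and 6371 CPM of barrier markers, against 5814 and 833 CPM in its injured cells. EC_CAP-PV+ kept 13 injured and 42 intact cells and is given as levels only, 12948 CPM in injured and 25853 CPM in intact cells. The sources used here do not say what PV stands for.

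**Figure D2:**
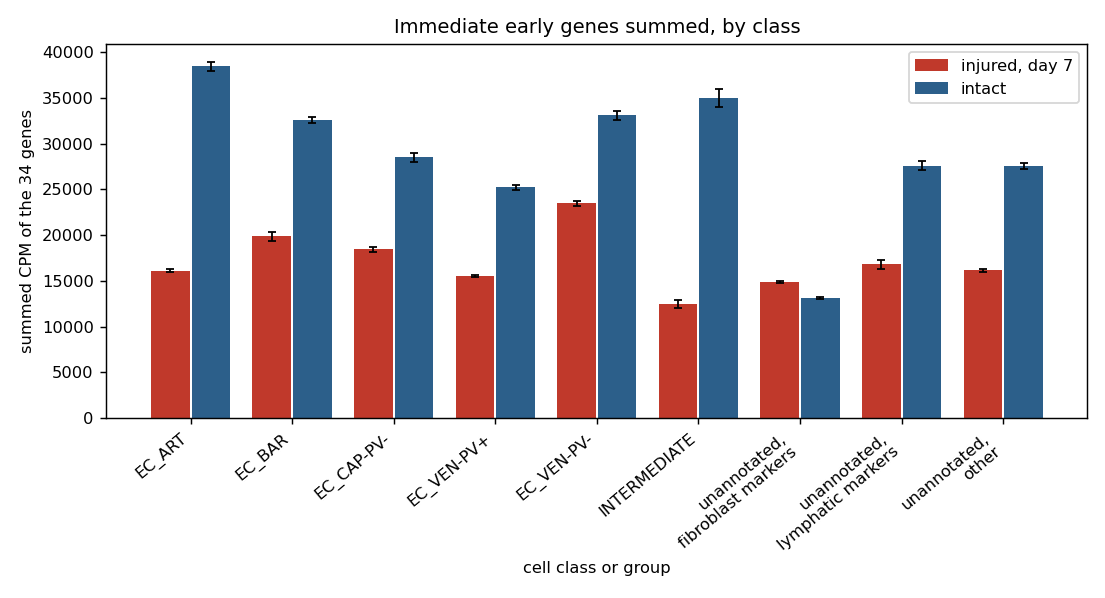
Summed CPM of the 34 genes by cell class (injured red on the left, intact blue on the right, 1 library each; bars show 95% counting intervals), for the 5 compared endothelial classes, INTERMEDIATE, and 3 groups of unannotated barcodes. Injured bars are lower in every class except the unannotated barcodes with fibroblast markers, where they stood at 14859 CPM against 13132 CPM in intact cells.

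The count of called members was read against the share of all genes measured in that class (a mean of at least 50 CPM and at least 10 UMIs in a library). In EC_ART 17 of 31 measured members were at least 2-fold lower, where 7.34% of all measured genes were, and 0 were higher, where 6.38% were. In EC_BAR 9 of 32 were lower, against 6.59% of genes, and 1 was higher, against 5.11%. In EC_CAP-PV- 7 of 32 were lower, against 8.4% of genes, and 0 higher, against 5.46%. In EC_VEN-PV+ 9 of 32 were lower, against 5.47% of genes, and 0 higher, against 3.62%. In EC_VEN-PV- 3 of 32 were lower, close to the 7.22% of all genes there, and 1 was higher, against 6.98%. The median log2 ratio of measured members was -1.18, -0.51, -0.37, -0.68 and -0.38 in these 5 classes in the same order, while that of all measured genes lay between -0.02 and 0.12.

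Egr1 was at least 2-fold lower in all 5 classes, and was the lowest or the next lowest member in 4 of them. It had 343 CPM in injured and 2484 CPM in intact EC_ART cells (log2 -2.84), 778 and 2013 CPM in EC_BAR (log2 -1.37), and 564 and 2182 CPM in EC_CAP-PV- (log2 -1.94). In the venous classes it had 434 CPM in injured and 1440 CPM in intact EC_VEN-PV+ cells (log2 -1.72), and 771 and 2184 CPM in EC_VEN-PV- (log2 -1.50). The highest of these injured values, 778 CPM in EC_BAR, lay below the lowest intact one, 1440 CPM in EC_VEN-PV+. These classes share 1 library per condition, and the share of all genes with such a gap was not counted. Of 31 members measured in all 5 classes, 18 were lower in injured cells in every class, and for 15 of these the counting interval lay below 1 in every class. Those 15 were Fos, Fosb, Jun, Junb, Jund, Egr1, Ier2, Ier3, Btg2, Dusp1, Zfp36, Klf10, Gadd45b, Gadd45g and Mcl1, and the other 3 were Egr3, Atf3 and Zfp36l1. Of the 2344 genes measured in all 5 classes, 17.2% were lower in every class, 6.87% had the interval below 1 in every class, and 1.15% were at least 2-fold lower in every class, as Egr1 alone of the 31 members was.

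Beside Egr1, the members with the lowest ratios differed by class. In EC_ART Gadd45g was next, at 174 CPM in injured and 883 CPM in intact cells (log2 -2.31). In EC_BAR the lowest were Klf6, at 197 and 649 CPM in injured and intact cells (log2 -1.69), and Gadd45g, at 194 and 633 CPM (log2 -1.68). Klf6 thus passed the call in barrier cells, where pooled endothelium gave log2 -0.35. In EC_CAP-PV- Egr3 was the lowest, at 28.5 CPM in injured and 142 CPM in intact cells (log2 -2.13), and in EC_VEN-PV+ Zfp36 followed Egr1, at 536 CPM in injured and 1615 CPM in intact cells (log2 -1.58). In EC_VEN-PV- Gadd45g was the lowest, at 103 CPM in injured and 498 CPM in intact cells (log2 -2.22).

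Dusp6, the ERK phosphatase, was the highest member in 4 of the 5 classes. It had 124 CPM in injured and 29.4 CPM in intact EC_BAR cells (log2 1.91). In EC_VEN-PV- it had 89.1 CPM in injured and 28.4 CPM (14 UMIs) in intact cells (log2 1.49). These were the only calls of a higher member in the 5 classes. The intact EC_VEN-PV- cells carried more barrier than venous markers (6371 and 1292 CPM), and the injured ones more venous than barrier markers (5814 and 833 CPM). The part of this unlike make-up in the Dusp6 ratio was not tested. In EC_ART Dusp6 had 154 CPM in injured and 92.9 CPM in intact cells (log2 0.70), ahead of Sgk1 at 272 and 250.6 CPM (log2 0.12). In EC_VEN-PV+ it had 123 CPM in injured and 84.0 CPM in intact cells (log2 0.52), ahead of Klf6 at 447 and 349 CPM (log2 0.35). The interval of the Dusp6 ratio lay above 1 in these 4 classes. In EC_CAP-PV- the ratio was 1.08 and its interval (0.803 to 1.47) held 1. The second highest members elsewhere were Myc in EC_BAR, at 90.2 CPM in injured and 56.6 CPM in intact cells (log2 0.63), and Nr4a1 in EC_VEN-PV-, at 556 and 335 CPM (log2 0.72). In EC_CAP-PV- Myc led, at 82.7 CPM in injured and 45.3 CPM in intact cells (log2 0.80), followed by Nfkbia at 1113 and 801 CPM (log2 0.47). Of 32 members measured in at least 2 of the 5 classes, 7 had intervals on opposite sides of 1 in different classes, where 8.68% of such genes had.

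**Figure D3:**
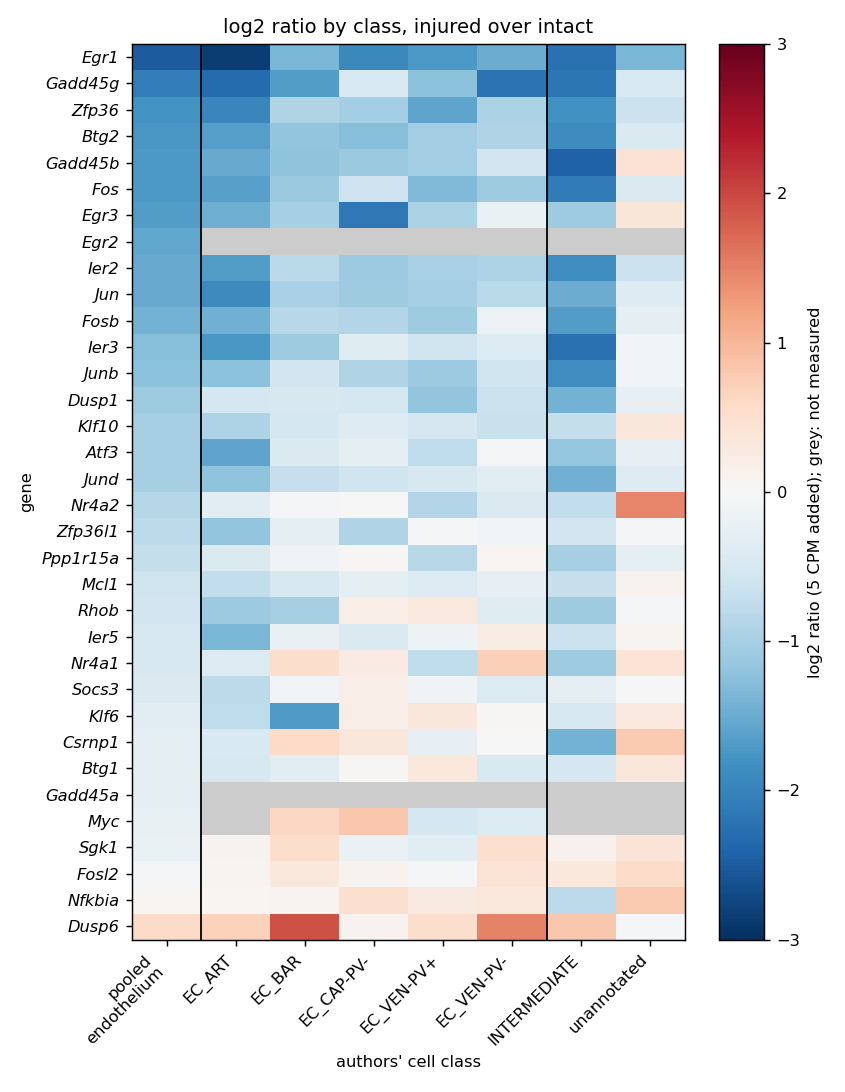
Log2 ratio (injured over intact, 5 CPM added; blue lower and red higher in injured) of each gene by class, with pooled endothelium on the left, the 5 compared endothelial classes in the middle, and INTERMEDIATE and unannotated cells on the right; grey cells were not measured. The rows from Egr1 to Mcl1 are mostly blue in the 5 classes, Dusp6 is red in 4 of them and pale in EC_CAP-PV-, and the column of unannotated cells is pale apart from Egr1 (log2 -1.38) and Nr4a2 (log2 1.47).

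Markers of mural cells also differed between the libraries. The 8 pericyte and smooth muscle markers, all detected in both libraries, summed to 220 CPM in injured and 1061 CPM in intact endothelium, and their part in the lower levels was not tested. In EC_ART these markers summed to 286 CPM in injured and 113 CPM in intact cells, with 6 of 8 detected in each. Over the other 4 classes they ranged from 57.0 to 344 CPM in injured and from 346 to 1485 CPM in intact cells. The 5 perineurial markers, which share Slc2a1 with barrier endothelium, summed to 376 CPM in injured and 1039 CPM in intact endothelium. Erythroid markers summed to 39.7 CPM in injured and 310 CPM in intact endothelium, and stood at 2779 CPM in intact EC_VEN-PV- cells. Mitochondrial UMIs took a median of 3.56% of injured and 4.94% of intact cells.

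Cells were also read at a common depth, since injured cells were deeper. Each cell was thinned to 2000 UMIs, which left 1255 injured and 583 intact endothelial cells and dropped 19 and 135 shallower ones. An injured cell then held a median of 26 UMIs of the 34 genes (10th to 90th percentile 11 to 52), and an intact cell a median of 54 (20 to 94). The lower level was therefore shared by most injured cells. Of injured cells 90.5% lay below the intact median, while 80.8% of intact cells lay above the injured median, and 0 cells in either library had no UMI of these genes. A median of 14 of the 34 genes was detected per injured cell and 19 per intact cell. Within classes the medians were 30 UMIs in injured and 77 in intact EC_ART cells, 32 and 60 in EC_BAR, 31.5 and 55 in EC_CAP-PV-, 29 and 47 in EC_VEN-PV+, and 43 and 62 in EC_VEN-PV-.

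**Figure D4:**
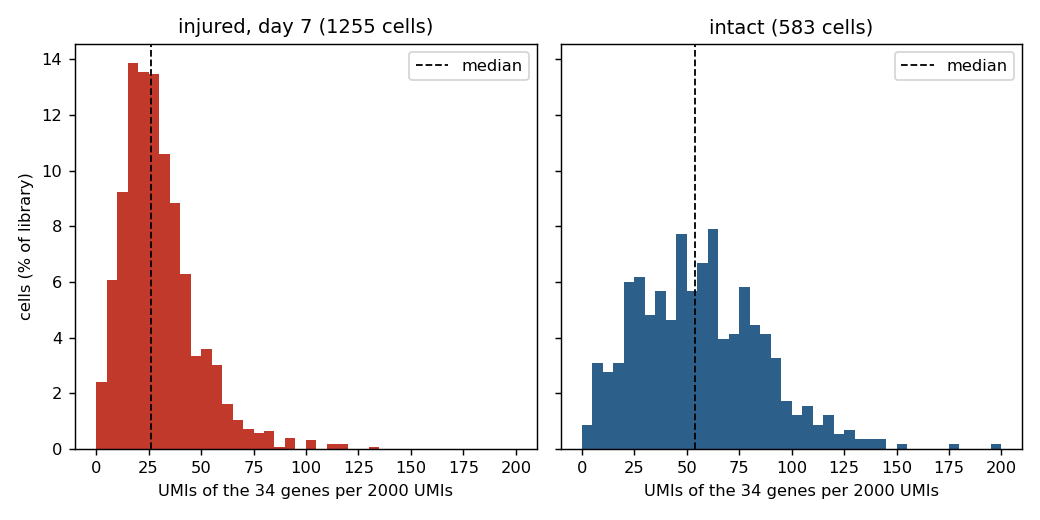
Share of cells (% of the library) by number of UMIs of the 34 genes after thinning each cell to 2000 UMIs, for 1255 injured cells on the left and 583 intact cells on the right; dashed lines mark the medians of 26 and 54. The injured cells form a narrow low peak, while the intact cells spread widely, with a 90th percentile of 94 UMIs against 52 in injured cells.

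The share of cells with a UMI followed the same order at a common depth. Fos was detected in 71.2% of injured cells (exact 95% interval 68.6 to 73.7) and 89.5% of intact cells (86.8 to 91.9); before thinning the shares were 90.6% and 88.2%, where depth differed. Egr1 was detected in 41.3% of injured cells (38.5 to 44.1) and 80.3% of intact cells (76.8 to 83.4). For Nfkbia the shares were 81.3% and 80.1% of injured and intact cells. In cells with a Fos UMI the mean was 3.9 in injured and 8.5 in intact cells, so Fos differed both in how many cells held it and in how much each held. Every class held these genes, so no cell type could give a background share for free RNA, whose part was not tested.

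Cells with a UMI of Fos were compared with cells without. In thinned cells with a Fos UMI (894 injured and 522 intact cells), the other 33 members were mostly higher than in cells without (361 injured and 61 intact cells). The interval of the ratio lay above 1 for 26 of 33 in the injured library and 28 of 33 in the intact library, and below 1 for 0 in both. Of all measured genes other than Fos, the interval lay above 1 for 3.45% and below 1 for 3.93% in the injured library, and for 3.3% and 4.1% in the intact library. These shares were larger among abundant genes. For the 705 genes that averaged 200 CPM or more, the interval lay above 1 for 13.9% and below 1 for 6.95% in injured cells, and for 22.8% and 8.94% in intact cells. Of the 24 members at that level it lay above 1 for 20 in injured and for 24 in intact cells. The class and quality of cells were not held equal in this split. The median ratio over the 33 members was 1.67 in injured and 3.46 in intact cells. For Egr1 the ratio was 3.18 in injured and 5.89 in intact cells, and for Fosb 2.86 and 8.51. These cells share a library and a fixed depth, so the ratios describe cells and not animals. Cells were also ranked by UMIs into 3 equal groups within each library. From shallow to deep, the summed level was 15308, 15518 and 13149 CPM in injured and 22261, 26279 and 32916 CPM in intact endothelium. The groups were not matched in depth between libraries, with median UMIs of 5381, 11684 and 25683 in injured and 1818.5, 4486 and 10626 in intact cells. Every injured group lay below every intact group, but the share of all genes with such a gap was not counted.

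Cells labelled INTERMEDIATE, which the authors set beside the endothelial classes, gave the lowest ratio of any class compared. The summed level was 12477 CPM in 88 injured cells and 34959 CPM in 46 intact cells, 2.80-fold lower (2.68 to 2.93). Of 31 measured members 18 were at least 2-fold lower, where 14.2% of all genes measured there were, and 0 were higher, where 10.2% were. The lowest were Gadd45b, at 83.2 CPM in injured and 467 CPM in intact cells, and Ier3, at 508 and 2429 CPM. These cells were shallow, with medians of 1844 UMIs in injured and 1285 in intact cells, and mitochondrial UMIs took a median of 8.05% of injured and 4.69% of intact cells. They held 1452 CPM of fibroblast markers in injured and 3917 CPM in intact cells, with 6 and 5 of 7 detected. Pericyte and smooth muscle markers summed to 175 CPM in injured and 2487 CPM in intact cells (6 and 8 of 8 detected), and myeloid markers to 628 and 14.4 CPM (5 and 1 of 8 detected). The part of these markers and of mitochondrial RNA in the difference was not tested.

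The unannotated barcodes as a whole lay closer to equal levels. Over 516 injured and 738 intact barcodes the summed level was 15385 CPM in injured and 17959 CPM in intact cells, 1.17-fold lower (1.16 to 1.18). Egr1 alone of 31 measured members was at least 2-fold lower, at 612 CPM in injured and 1601 CPM in intact cells, where 8.45% of genes were, and Nr4a2 alone was higher, at 195 and 67.3 CPM, where 7.23% were. Barcodes of at least 1000 UMIs were then split by markers, a step added after the data were seen. Of these, 251 injured and 351 intact barcodes with at least 4 of 7 fibroblast markers had 14859 CPM in injured and 13132 CPM in intact cells, a ratio of 1.13 (1.12 to 1.15). In these cells Fos stood at 2255 CPM in injured and 2287 CPM in intact cells, and Junb at 1629 and 1053 CPM, while Egr1 was still lower in injured cells at 727 and 1301 CPM. Barcodes with at least 3 of 6 lymphatic endothelial markers, 20 injured and 103 intact, had 16789 CPM in injured and 27583 CPM in intact cells, a ratio of 0.609 (0.588 to 0.630). The other barcodes of at least 1000 UMIs, 161 injured and 211 intact, had 16148 CPM in injured and 27523 CPM in intact cells, a ratio of 0.587 (0.578 to 0.596). The 3 groups were read from the same libraries and digestions as the endothelium, and the cause of their unlike ratios was not tested.

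Related genes were read in pooled endothelium as 10 lists, beside the 6.82% of all measured genes that were at least 2-fold lower and the 4.79% that were higher. Among 27 measured other immediate early genes, 9 were lower and 1 was higher, with a median log2 ratio of -0.26. The lower ones included Klf2 and Klf4, flow-induced endothelial factors related to Klf6 and Klf10, at 823 and 363 CPM in injured and 2848 and 1547 CPM in intact endothelium. Both were picked after their values were seen. The most different were Ier5l, a relative of Ier5, at 86.8 CPM in injured and 431 CPM in intact endothelium (log2 -2.25), and Hes1, a Notch target, at 109 and 497 CPM (log2 -2.14). Tnfaip3 (A20), an NF-kB target that restrains NF-kB, was the higher one, at 59.4 CPM in injured and 25.1 CPM in intact endothelium (log2 1.10). Of 24 kinases and factors upstream (RAS, RAF, MAP kinases, ELK and CREB proteins), 0 were lower and 0 higher, with a median of -0.02. Of 9 ERK feedback and ETS target genes 1 was lower and 0 higher (median 0.17); it was Il17rd, an inhibitor of FGF signalling, at 24.9 CPM in injured and 58.3 CPM in intact endothelium (log2 -1.08).

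**Figure D5:**
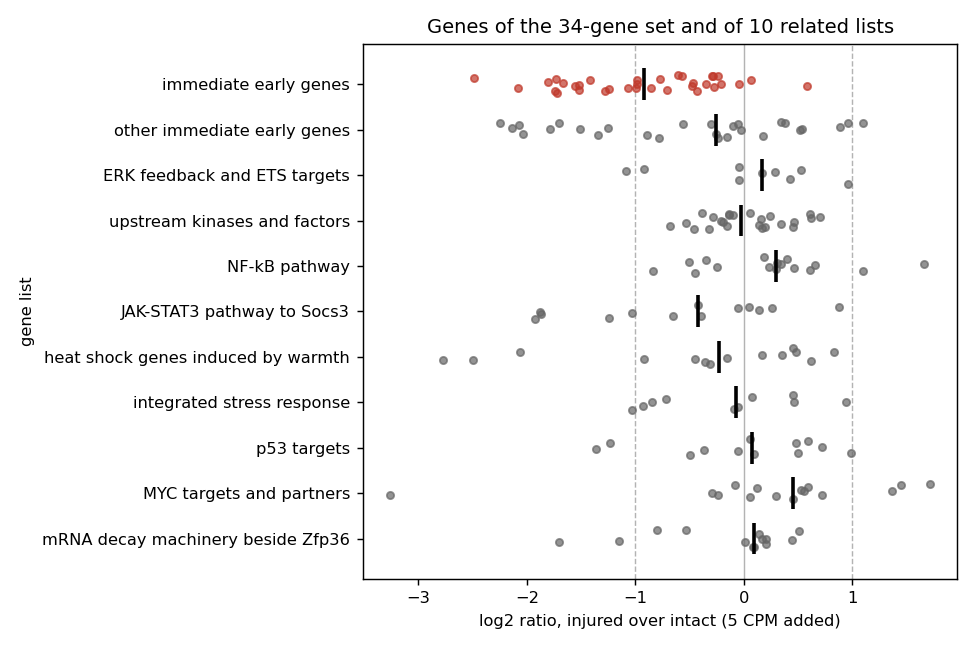
Log2 ratio (injured over intact, 5 CPM added) of every measured gene of the 34-gene set (red) and of 10 related lists (grey) in pooled endothelium, 1 library each; black bars are list medians and dashed lines mark 2-fold. The 34 genes centre at -0.92, while the upstream kinases centre at -0.02 and stay within 2-fold.

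Pathways that feed the feedback members differed from each other. Of 16 NF-kB genes 0 were lower and 2 higher, with a median of 0.30; besides Tnfaip3 the chemokine gene Cxcl1 stood at 123 CPM in injured and 35.4 CPM in intact endothelium (log2 1.67). Nfkbia itself lay at 0.06. Of 13 JAK-STAT3 genes 5 were lower and 0 higher, with a median of -0.42. Among them Il6ra, the interleukin-6 receptor chain, had 3.602 CPM in injured and 27.7 CPM in intact endothelium (log2 -1.93), and Socs1, an inhibitor related to Socs3, had 8.10 and 43.2 CPM (log2 -1.88); Junb is also in this list. Of 13 genes of mRNA decay 2 were lower and 0 higher (median 0.09), and both, Tob1 at 66.5 CPM in injured and 227 CPM in intact endothelium (log2 -1.70) and Btg3 at 56.0 and 131 CPM (log2 -1.15), belong to the family of Btg1 and Btg2.

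Targets of Myc and p53 did not follow the set. Of 15 MYC targets and partners 3 were higher and 1 lower, with a median of 0.45, while Myc itself lay at -0.23. Nme1, a nucleotide kinase, had 212 CPM in injured and 60.8 CPM in intact endothelium (log2 1.72), and the cell cycle kinase gene Cdk4 had 162 and 56.1 CPM (log2 1.45). Ccnd2, a D-type cyclin, was the lower one, at 46.7 CPM in injured and 492 CPM in intact endothelium (log2 -3.26). Of 12 genes in the p53 list, which holds Trp53 (the gene of p53 itself) beside targets, 2 were lower and 0 higher (median 0.08). The lower ones were the cell cycle inhibitor Cdkn1a at 79.1 CPM in injured and 211 CPM in intact endothelium (log2 -1.36) and Sesn1 at 9.91 and 30.2 CPM (log2 -1.24). Of 10 genes of the integrated stress response 1 was lower and 0 higher (median -0.07), Ddit4, an mTOR inhibitor, at 91.2 CPM in injured and 192 CPM in intact endothelium (log2 -1.03).

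Dissociation with warm enzymes is a known inducer of immediate early and heat shock genes, and both libraries had it. Of 14 heat shock genes 3 were at least 2-fold lower and 0 higher, with a median of -0.23. Hspa1a, the inducible HSP70, had 24.6 CPM in injured and 197 CPM in intact endothelium (log2 -2.77), and its near-identical copy Hspa1b had 18.01 and 124.8 CPM (log2 -2.496), although reads may be split between these copies. The part of dissociation in the levels of the immediate early genes was not tested.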

How the data were processed

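Libraries of sorted nerve endothelium were read as UMI counts per gene and barcode, deposited by the authors without normalization. Per the file headers they are the output of Cell Ranger 3.0.2, and per the submitters' processing notes Cell Ranger 6.1.2, Seurat 4.0.1, mm10 and GRCm38 were used as well. Cell classes came from the authors' deposited table, and the sources used here do not say how those cells were chosen. No doublet caller was run; an alternative left out the 5% of cells with most UMIs. UMIs were added up per library and class with Python 3.11.15, numpy 2.4.6, pandas 2.3.3 and scipy 1.17.1 and divided by their total (CPM). CPM carry exact Poisson and ratios exact conditional binomial 95% intervals, for counting error only. Log2 ratios had 5 CPM added, and a call was 2-fold. Counts were simulated for 8230 genes with Poisson error only, as the intervals assume, and some genes were given a known fold. Of the intervals of the unchanged genes 95.9% covered 1. Thinning used seed 1. The 34 genes, the 10 lists and the markers were chosen with earlier results of these data known. Given in full were the 8 highest and 8 lowest members and those of at least 200 CPM, per class the 2 highest and 2 lowest, and per list up to 2 called genes in each direction. Promoters were RefSeq's on GRCm38.p6, and gene models GENCODE's on GRCm38, matched by Ensembl ID; for Dusp1 and Nr4a1 the ID version differed.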

Additional observations from a re-analysis of the deposited data

Results flagged for a closer look

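Of the 32 members measured in at least 2 of the compared endothelial classes, 7 lay on opposite sides of equal levels in different classes, each beyond its counting interval, where 8.68% of 3352 such genes did, although the differences between classes were not tested, since each class had 1 library per condition. The largest gap was that of Klf6, at 447 CPM in injured and 349 CPM in intact EC_VEN-PV+ cells, against 197 and 649 CPM in injured and intact EC_BAR cells, a difference in log2 ratio of 2.04. For Nr4a1 the difference between EC_VEN-PV- (556 and 335 CPM in injured and intact cells) and EC_VEN-PV+ (277 and 473 CPM) was 1.48. For Rhob that between EC_VEN-PV+ (272 and 220 CPM in injured and intact cells) and EC_ART (454 and 974 CPM) was 1.39. Myc differed by 1.32 between EC_CAP-PV- (82.7 and 45.3 CPM in injured and intact cells) and EC_VEN-PV+ (66.5 and 97.4 CPM). Csrnp1 differed by 1.03 between EC_BAR (172 and 114 CPM in injured and intact cells) and EC_ART (94.0 and 131 CPM). Smaller differences were those of Sgk1, 0.82 between EC_BAR (282 and 195 CPM in injured and intact cells) and EC_VEN-PV+ (259 and 321 CPM), and of Btg1, also 0.82, between EC_VEN-PV+ (517 and 411 CPM) and EC_ART (468 and 659 CPM). EC_BAR kept 36 injured and 181 intact cells, and intact EC_VEN-PV- cells carried more barrier than venous markers (6371 and 1292 CPM).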

How the results depend on the processing

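No summed, median or class value changed sign under any of the alternatives run, which included 2 chosen after seeing the data (cells of 4000 to 10000 UMIs, and no barcodes found in both libraries). Of 408 member values under alternatives, 171 stayed within the counting interval of the main value and 237 moved outside it. Of 168 values of the 14 lower members, 168 stayed below 0 and 154 at -1 or less. The uncalled members Csrnp1, Fosl2, Gadd45a, Myc, Nfkbia, Nr4a1 and Sgk1 changed sign in at least 1 alternative, within -0.58 and 0.35. The count of members at least 2-fold lower was between 10 and 17, and at 1.5-fold it was 21, with 1 higher (Dusp6). The share of all measured genes was not counted under these alternatives, so these counts have no background beside them. The summed log2 ratio of pooled endothelium, -1.12, became -1.10 with all annotated cells, -0.93 after thinning, -0.85 as a mean of per-cell CPM, -1.16 with all genes centred on 0, -1.07 without mitochondrial and ribosomal protein genes, -1.21 in cells under 5% mitochondrial UMIs, -1.02 without the 5% of cells with most UMIs, -0.92 in cells of 4000 to 10000 UMIs, -0.96 without shared barcodes, -0.76 with classes weighted equally and -0.82 without EC_IMMAT, EC_PROLIF and EC_TIP. The median over members, -0.92, became -0.66 thinned, -0.54 per cell, -1.001 under 5% mitochondrial UMIs, -0.81 without the deepest cells, -0.67 at 4000 to 10000 UMIs, -0.70 without shared barcodes, -0.56 with equal weights and -0.64 without the 3 classes. The cause of these shifts was not tested. The scalings moved the median of all genes to at most 0.07.

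By class, thinning gave summed log2 ratios of -1.29 in EC_ART, -0.64 in EC_BAR, -0.59 in EC_CAP-PV-, -0.61 in EC_VEN-PV+ and -0.34 in EC_VEN-PV-, and per-cell means gave -1.09, -0.60, -0.40, -0.61 and -0.40 in the same order. Centring gave -1.33 in EC_ART, -0.78 in EC_BAR, -0.81 in EC_VEN-PV+ and -0.60 in EC_VEN-PV-. Without mitochondrial and ribosomal protein genes it was -1.20 in EC_ART, -0.63 in EC_BAR and -0.52 in EC_CAP-PV-. Under 5% mitochondrial UMIs it was -1.36 in EC_ART, -0.66 in EC_BAR, -0.77 in EC_CAP-PV- and -0.68 in EC_VEN-PV-. Without the deepest cells it was -1.17 in EC_ART, -0.67 in EC_BAR and -0.40 in EC_VEN-PV-. At 4000 to 10000 UMIs it was -1.31 in EC_ART, -0.51 in EC_CAP-PV-, -0.59 in EC_VEN-PV+ and -0.34 in EC_VEN-PV-. Without shared barcodes it was -1.10 in EC_ART, -0.64 in EC_BAR, -0.66 in EC_VEN-PV+ and -0.41 in EC_VEN-PV-, and with shallower cells kept it was -0.60 in EC_BAR. No paired analysis was possible because each condition had 1 library. For the same reason no library could be left out, and the spread between animals is unknown. Egr2 and Gadd45a in all 5 classes, and Myc in 1, were under the level set for a class ratio.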
